A study of Mus musculus with 28 samples.

Results

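Induced pluripotent stem cells (iPSC) obtained with DMSO, the solvent control, were compared with mouse embryonic fibroblasts that were reprogramming in doxycycline (DOX). The comparison held 6 of the 28 samples of the series, 3 iPSC libraries and 3 DOX libraries, chosen by their labels, and 18 samples had deposited expression values. Both kinds of cell came from cultures of E13.5 to E15.5 embryos whose cells carried 1 copy each of a Rosa26-rtTA driver and an Oct4-GFP reporter. They also carried 1 copy of a doxycycline-inducible OKSM allele (Oct4, Klf4, Sox2 and Myc) or 2 copies of an inducible OKS allele, which lacks Myc. The labels did not say which allele a library carried, or whether libraries of a group were separate embryos, cultures or lines. The DOX cells received doxycycline at 1 µg/ml on a layer of irradiated feeder cells, and the time of their RNA sample was not given. For the iPSC the labels gave a cell type of iPSC and also a harvest after 48 hours of reprogramming. Doxycycline at 1 µg/ml was recorded for the iPSC as well, but not whether it was still present at harvest. Feeders were not stated for the iPSC. For the second pair of groups, 3 iPSC libraries and 3 DOX libraries with the inhibitor UNC0638 (UNC) at 1 µM, the labels were otherwise the same, and the UNC iPSC had received UNC for the first 48 hours.

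Reprogramming turns a fibroblast, a mesenchymal cell that secretes collagen-rich matrix, into a cell like that of the early epiblast. The introduced factors first silence mesenchymal genes and let epithelial junctions form, and only later does the cell's own network around Oct4, Nanog, Esrrb and Sall4 come on. Pluripotent mouse cells are also known for de novo DNA methylation genes, for leaky expression of germline genes and for silent Hox clusters, whereas fibroblasts keep the Hox code of the body region they came from.

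The groups lay in 2 tables that the authors had processed separately, so table and cell state cannot be told apart, and no p-value is given. With 3 against 3 libraries an exact permutation test could not go below 0.10 either. Levels are CPM, a gene's reads per 1e+06 reads in the protein-coding genes kept. A gene was tested where the mean of a group reached 1 CPM, and was called higher or lower where the group means differed at least 8-fold and no library of one group overlapped with the other group. A group with 0 reads was set to 3 reads over the group, or 0.0904 CPM in DOX and 0.0444 CPM in iPSC, and the fold is then a lower bound. A group with 1 to 3 reads was also raised to that floor, where lower, for calls, log2 ratios, rankings and list medians. Ratios printed with a counting interval use its own mean instead. A gene at the floor in 1 group was tested only through the other group, so the filter favoured calls in that direction. Libraries held 10.6 to 12.9 times 1e+06 reads in genes in DOX and 23.8 to 25.4 times 1e+06 in iPSC.

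The tables differed in kinds of RNA. Pseudogenes took 5.99% of the reads in genes of the iPSC and 2.55% of those of the DOX libraries, whereas replication histone genes took 0.00623% and 0.883%. Small nuclear RNA genes took 0.000848% and 0.864%, and protein-coding genes other than histone and ribosomal protein genes took 90.4% and 90.5%. The cultures also differed in sex chromosome transcripts: 4 of 4 Y-linked genes tested were called higher in iPSC, at 0 to 3 reads in each DOX library. Xist, the noncoding RNA of the inactive X chromosome, was at 255 ± 38.8 CPM in DOX and 1.55 ± 0.444 CPM in iPSC. Of 467 X-linked genes tested, 56 were higher in iPSC (12%) and 35 lower (7.49%). The part of table and sex in the gene results was not tested, except that without X- and Y-linked genes 1601 genes were higher and 630 lower.

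Of 13598 protein-coding genes tested, 1656 were at least 8-fold higher in iPSC than in DOX with every library separated (12.2%), and 657 were at least 8-fold lower (4.83%). Among those higher were nearly all genes of the pluripotency network beyond the introduced factors, epithelial junction genes and germline genes. Those lower held most Hox genes, collagen VI chains, mesenchymal transcription factors and chemokines. No gene passed 8-fold with overlapping libraries. A further 680 genes were 4-fold to 8-fold higher with separated libraries and 639 lower, outside the rule. At the far end, 288 genes were at least 100-fold higher and 33 at least 100-fold lower. Of the genes higher, 357 had 0 reads in all 3 DOX libraries, while 7 of those lower had 0 reads in all 3 iPSC libraries. The median log2 ratio of all genes tested was 0.23, and it was 0.09 with TMM or size factors in place of read totals.

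**Figure D1:**
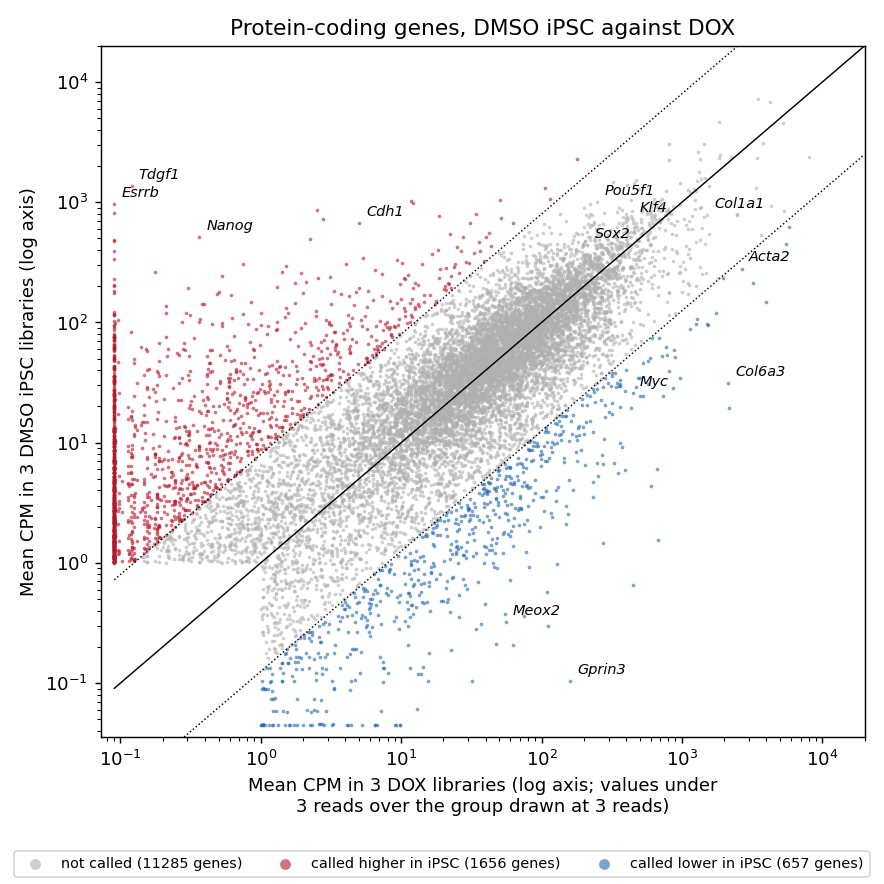
Mean CPM of each protein-coding gene tested in the 3 DOX libraries (x axis) and the 3 DMSO iPSC libraries (y axis), both on log axes, with equality as a solid line and 8-fold as dotted lines. The 1656 genes called higher lie above the upper dotted line, many at the left edge where DOX had 0 reads, and the 657 called lower lie below the other.

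The cell type labels were checked against defining markers. All 8 pluripotent markers were called higher in iPSC, with a summed level of 4579 to 4655 CPM per iPSC library and 26.5 to 32.0 CPM per DOX library, and 5 of the 8 had 0 reads in DOX. Of 9 fibroblast markers 8 were lower in each iPSC library than in each DOX library, and 4 were called lower. Their summed level was 1537 to 1929 CPM per iPSC library and 8603 to 9507 CPM per DOX library. None of the 9 was at 0 in the iPSC. Thy1, a fibroblast surface protein that cells lose early in reprogramming, was at 33.4, 40.5 and 28.9 CPM in the iPSC and 152, 143 and 160.4 CPM in DOX, under 8-fold. Col1a1, a chain of the type I collagen of fibroblast matrix, was at 750.1, 882 and 727 against 1438, 1490.2 and 1579.7 CPM, and the growth factor receptor gene Pdgfrb at 36.5, 41.7 and 37.4 against 64.7, 43.6 and 53.4 CPM. Fibroblast transcripts were thus still counted in every iPSC library. In bulk RNA, fewer cells of a type and less RNA per cell cannot be told apart, and whether feeder cells gave these reads was not tested.

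**Figure D2:**
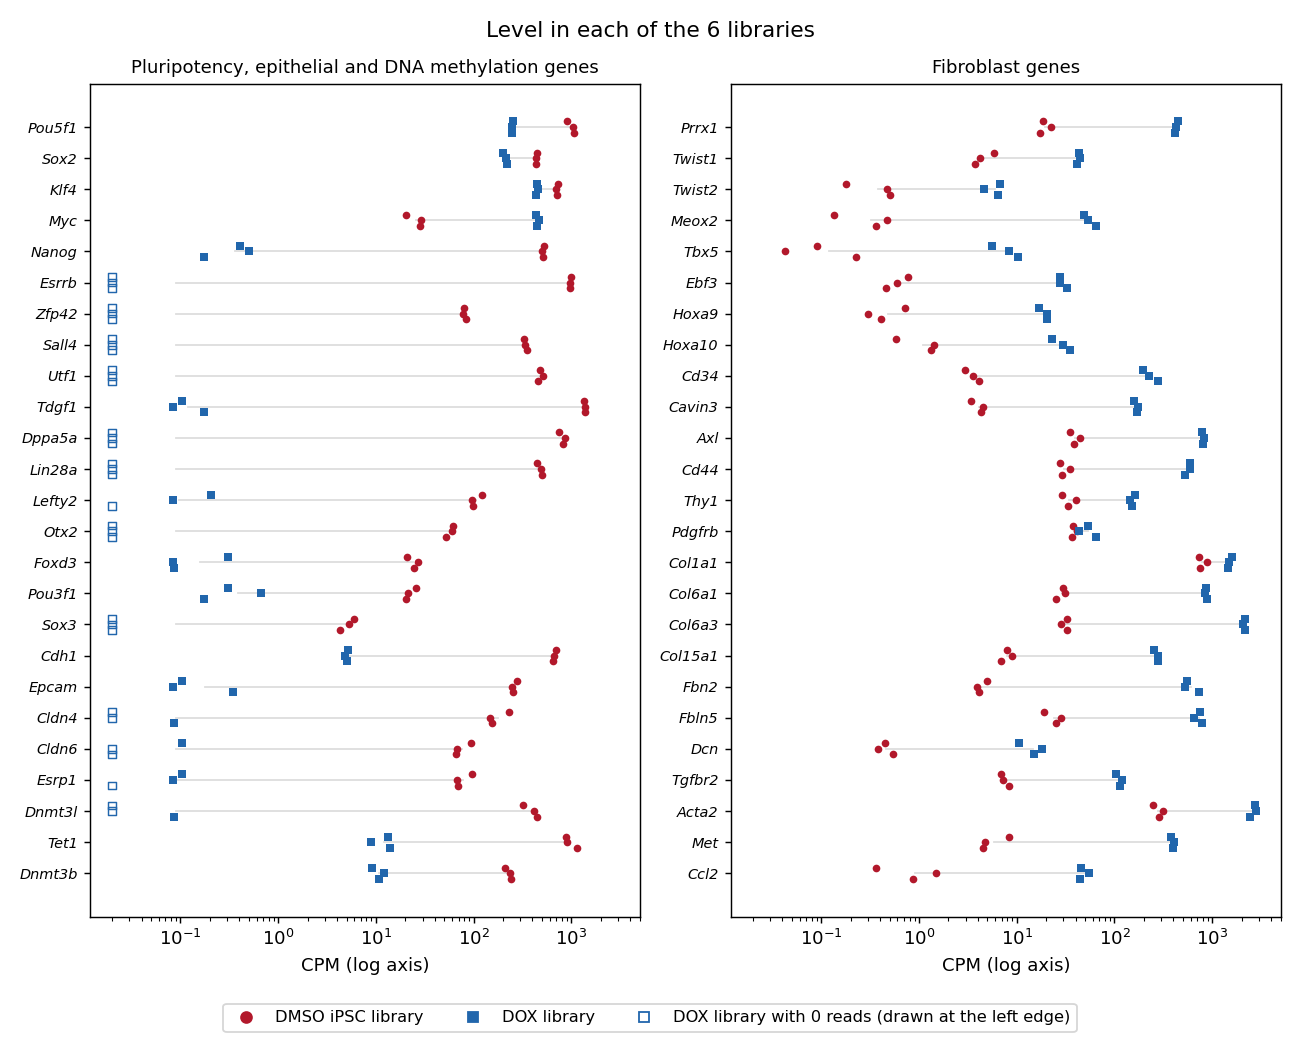
CPM in each of the 6 libraries (log axis) for 25 pluripotency, epithelial and DNA methylation genes and 25 fibroblast genes, with circles for DMSO iPSC, squares for DOX and open squares for DOX libraries with 0 reads; grey lines join the group means. Pou5f1, Sox2 and Klf4 lie close together in the groups, whereas Esrrb, Utf1 and Dppa5a had 0 reads in DOX.

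The reprogramming factors behaved unlike the rest of the network. Pou5f1, which encodes Oct4 (ENSMUSG00000024406, mm10 chromosome 17, 35506032 to 35510777), was at 1059, 1039 and 902 CPM in the iPSC libraries and 247, 249 and 250.2 CPM in DOX, a log2 ratio of 2.01 ± 0.071 that fell short of the rule. Sox2, its partner on DNA, was at 430.4, 437 and 444 against 221, 216 and 201 CPM, and Klf4 at 719, 697 and 738 against 437, 456 and 443 CPM. All iPSC libraries lay above all DOX libraries for these 3 genes, by log2 ratios of 0.69 to 2.01. Myc, the growth-promoting factor, was lower in iPSC, at 28.5, 29.0 and 20.1 against 446, 461 and 435 CPM (-4.11 ± 0.16 on the log2 scale). Reads of the induced alleles count towards these genes, so endogenous and introduced transcripts cannot be told apart. Mycn, a family member that pluripotent cells use, was at 309 CPM in the iPSC and 0.747 CPM in DOX.

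Of 21 transcription factors of the pluripotency network tested, 17 were higher and 1, Myc, was lower, with a median log2 ratio of 8.04 against 0.23 over all genes. The 3 not called were Pou5f1, Sox2 and Klf4. Nanog, the homeobox factor that marks established pluripotency (mm10 chromosome 6, 122707489 to 122714633), was at 509.6, 502 and 528 CPM in the iPSC and 0.173, 0.505 and 0.411 CPM in DOX, 1415-fold apart. Esrrb, an orphan nuclear receptor that stands in for several network functions (mm10 chromosome 12, 86361117 to 86521628), was at 959.6, 959.5 and 992 CPM with 0 reads in DOX, at least 10735-fold higher. Of the 17 factors higher, 6 had 0 reads in each DOX library, among them Esrrb and the next 3. Zfp42, also known as Rex1, was at 82.6, 77.8 and 79.4 CPM in the iPSC, at least 884-fold higher. Sall4, a zinc finger factor of the Oct4 network, was at 355, 338 and 326 CPM, at least 3758-fold higher. Utf1, a chromatin factor of undifferentiated cells, was at 461, 507 and 483 CPM, at least 5351-fold higher. For each of these genes every iPSC library lay far above every DOX library, by much more than libraries of 1 group differed.

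Ligands, RNA-binding proteins and other genes of pluripotent cells followed, with 19 of 22 higher, none lower and a median of 7.39. Tdgf1, the Nodal co-receptor Cripto, was at 1364, 1374 and 1356 CPM in the iPSC and 0.173, 0.0842 and 0.103 CPM in DOX (11382-fold). Dppa5a, a KH-domain protein of the early embryo, was at 817, 860.0 and 754 CPM with 0 reads in DOX (at least 8966-fold). Lin28a, which blocks maturation of let-7 microRNAs, was at 500.3, 494 and 446 CPM, also with 0 reads in DOX (at least 5310.4-fold). Lefty2, a secreted inhibitor of Nodal, rested on 3 reads in DOX. It was at 98.0, 96.4 and 122 CPM in the iPSC, a ratio of 1094 (95% counting interval 399 to 5656). Alpl, the alkaline phosphatase by which reprogrammed colonies are stained, was at 272, 292 and 301 against 22, 29.1 and 19.7 CPM.

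Other genes among the 12 largest increases belonged to no such list. Nphs1, which encodes nephrin of the kidney filter, was at 211, 206 and 193 CPM against 1 read in DOX, a ratio of 7254 (95% counting interval 1213 to 2.67e+05). AU018091 was at 209.8, 206 and 186 CPM against 2 reads, a ratio of 3181 (95% counting interval 921 to 27483). Aire, the thymic transcription factor that drives self-antigen expression, was at 176, 186 and 183 CPM with 0 reads in DOX. Aire overlaps the end of Dnmt3l on chromosome 10 (78030022 to 78043610 and 78042287 to 78063622), and whether reads were counted by strand was not given, so reads of the pair may be shared. Rps27rt, at 228, 229 and 230.2 CPM with 0 reads in DOX, is a near-identical copy of a ribosomal protein gene, and its value depends on how reads of copies were counted.

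Genes of the primed state, which epiblast cells enter before gastrulation, were higher in 8 of 9 cases and lower in none (median 4.65). The share higher was 88.9%, against 12.2% of all genes tested. Otx2, the homeobox factor of that transition, was at 52.4, 59.4 and 61.6 CPM with 0 reads in DOX. Foxd3 was at 24.5, 27.0 and 20.9 against 0.0864, 0.0842 and 0.308 CPM and Pou3f1, also called Oct6, at 20.3, 21.5 and 25.9 against 0.173, 0.674 and 0.308 CPM, with a log2 ratio of 5.87 that became 6.55 without DOX replicate 2. Sox3 was lower in level, at 4.28, 5.30 and 6.01 CPM with 0 reads in DOX. Of 11 early lineage factors tested 6 were higher and 1 lower (median 3.51). Eomes, of trophoblast and endoderm, was at 20.1, 18.8 and 23.1 CPM against 1 read in DOX. T, the mesoderm factor Brachyury, was uneven between iPSC libraries, at 4.19, 4.53 and 14.7 CPM, and had 0 reads in DOX. Its lower bound went from 6.43 to 5.59 on the log2 scale without iPSC replicate 3. Sox1, of neural progenitors, was at 5.24, 4.70 and 4.97 against 0, 0.168 and 0.205 CPM. Afp, the fetal serum protein of yolk sac and liver, was the 1 lower, with 3 reads over the iPSC and 2.07, 3.45 and 2.36 CPM in DOX (DOX over iPSC ratio 58.0, 95% counting interval 19.8 to 295). Sox1 and Afp would not be tested with a minimum of 5 CPM.

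Most epithelial genes were higher in iPSC. Of 31 epithelial junction and keratin genes tested 24 were higher and none lower, with a median of 6.13. Cdh1, the E-cadherin that holds epithelial cells together (mm10 chromosome 8, 106603350 to 106670247), was at 651, 661 and 701 CPM in the iPSC and 5.10, 4.88 and 5.13 CPM in DOX, 133-fold apart. Epcam, an epithelial adhesion molecule, was at 255, 249 and 279 against 0.346, 0.0842 and 0.103 CPM (1469-fold). Cldn4 and Cldn6 encode claudins of tight junctions. Cldn4 was at 153, 148 and 231 CPM against 1 read in DOX, a ratio of 6157 (95% counting interval 1054 to 2.32e+05). Cldn6 was at 66.2, 67.8 and 94.7 CPM, also against 1 read, a ratio of 2228 (95% counting interval 453 to 99791). Esrp1, which sets epithelial splicing, was at 69.8, 67.9 and 95.4 CPM against 2 reads, a ratio of 1248 (95% counting interval 356 to 10627). For all 3 genes iPSC replicate 3 was the highest of its group.

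None of the 8 factors known for driving the epithelial-mesenchymal transition was higher and 3 were lower in iPSC, and the median was -2.57. All 8 were lower in each iPSC library than in each DOX library. Prrx1, a homeobox factor of limb and trunk mesenchyme, was at 17.5, 22.3 and 18.6 CPM in the iPSC and 418, 431 and 447 CPM in DOX (22.2-fold). Twist1 was at 3.73, 4.23 and 5.83 against 41.6, 44.4 and 43.4 CPM (9.38-fold), and Twist2 at 0.501, 0.470 and 0.181 against 6.48, 4.63 and 6.78 CPM. These basic helix-loop-helix factors repress Cdh1 in mesenchymal cells.

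**Figure D3:**
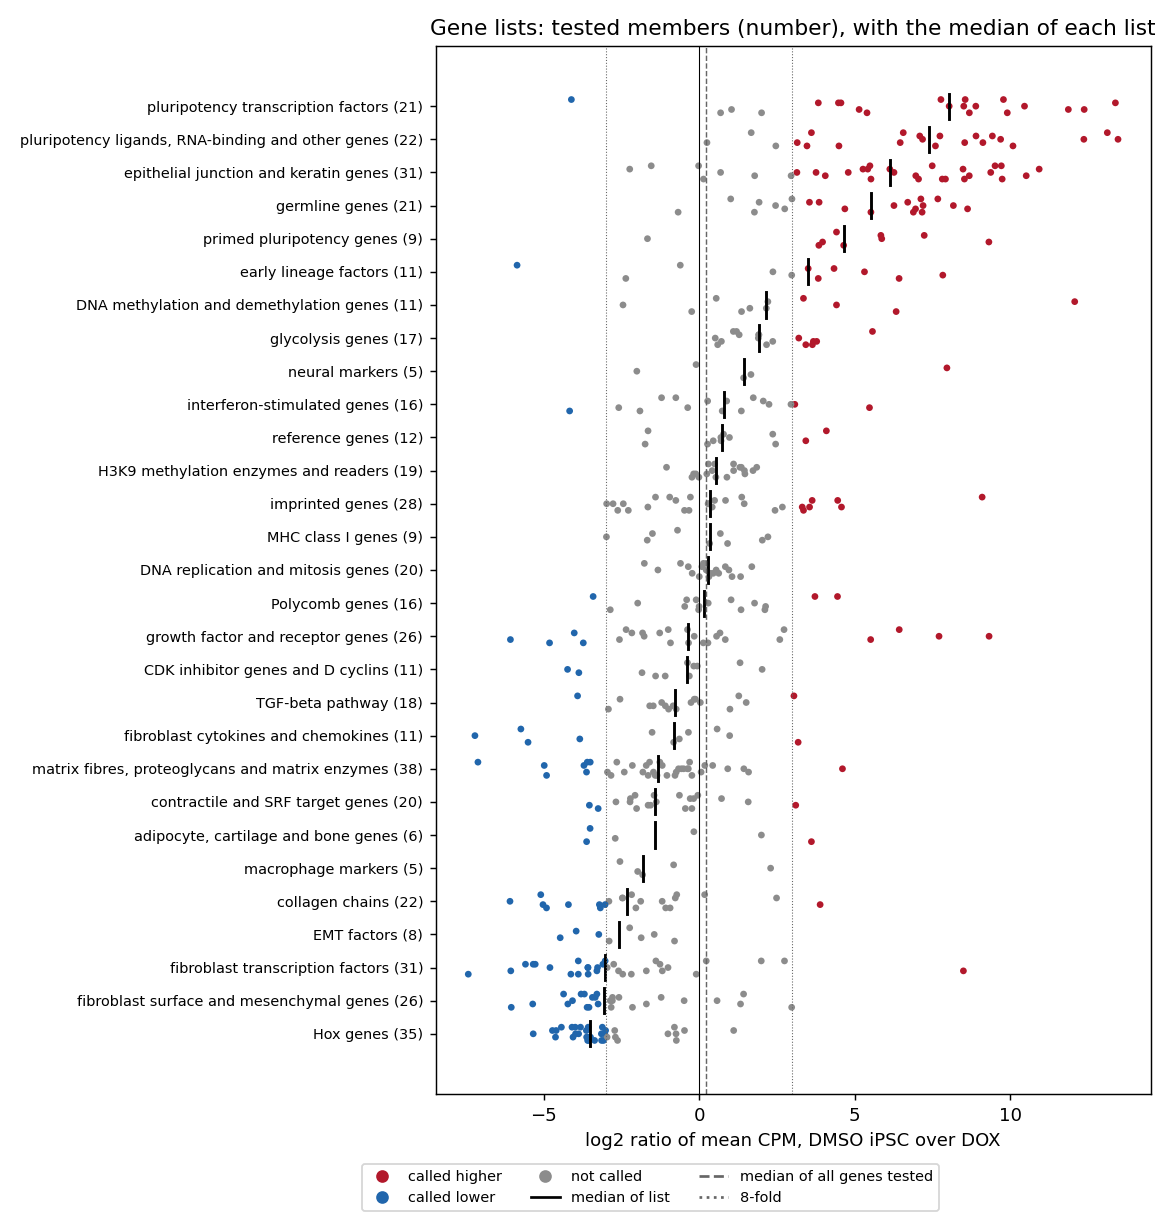
Log2 ratio of mean CPM, DMSO iPSC over DOX (x axis), of each tested member of the gene lists with at least 5 tested members (y axis, number tested in parentheses), with list medians as black bars. Medians run from 8.04 for pluripotency transcription factors to -3.50 for Hox genes, beside 0.23 for all genes tested (dashed line).

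Chromatin genes differed by family. Of 11 DNA methylation and demethylation genes 4 were higher and none lower (median 2.16). Dnmt3l, the cofactor of the de novo methyltransferases (mm10 chromosome 10, 78042287 to 78063622), was at 445, 411 and 319.8 CPM in the iPSC against 1 read in DOX, a ratio of 13596 (95% counting interval 2334 to 5.14e+05). Tet1, which oxidises 5-methylcytosine, was at 1139, 903 and 890.0 against 13.8, 9.01 and 13.4 CPM (80.8-fold). The de novo methyltransferase gene Dnmt3b was at 240.4, 237 and 210.0 against 10.8, 12.2 and 9.14 CPM (21.4-fold), and Zfp57, a zinc finger protein that guards imprints, at 328, 331 and 278 against 29.0, 29.3 and 33.4 CPM (10.2-fold).

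None of 19 H3K9 methylation enzymes and readers was called in either direction (median 0.54). Ehmt1 and Ehmt2 encode GLP and G9a, enzymes that add 2 methyl groups to H3K9 and are the targets of UNC. Ehmt1 was at 115, 113 and 115 CPM in the iPSC and 139, 134 and 130.4 CPM in DOX, and Ehmt2 at 275, 262 and 250.0 against 291, 317 and 282 CPM, 1.18-fold and 1.13-fold apart. The largest difference on that list was that of the demethylase gene Kdm4c, at 221, 223 and 207 against 63.8, 62.5 and 54.1 CPM (1.85 ± 0.08 on the log2 scale). Among 16 Polycomb genes 2 were higher (12.5%) and 1 lower (6.25%), with a median of 0.14. These shares lay near the 12.2% and 4.83% of all genes tested. Cbx7, the chromobox subunit typical of pluripotent cells, was at 393, 402 and 401 against 18.1, 18.9 and 17.8 CPM (21.9-fold), and Jarid2, which recruits the PRC2 complex, at 618, 581 and 471 against 42.9, 41.8 and 41.7 CPM (13.2-fold). Bmi1, a PRC1 subunit that represses Cdkn2a, was the 1 lower, at 7.33, 8.71 and 5.92 against 76.5, 79.3 and 77.9 CPM (10.6-fold).

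Of 21 germline genes tested 14 were higher in iPSC (66.7%, against 12.2% of all genes tested), none was lower, and the median was 5.52. Of the 25 listed genes in both tables, 6 had 0 reads in DOX. With DOX set to 3 reads, a gene at 1 CPM in the iPSC already passes 8-fold, so the filter favoured calls higher. Promoters were at hand for 17 of the 21, and 10 of the 17 (58.8%) held the E-box letters CACGTG within the 300 bases from 250 before to 50 after the start, against 10.1% of 10854 promoters of genes tested and 7.24% of all 27025 promoters of that length. The E-box reads the same on both strands. Its letters were in 8.85% of promoters of all genes called higher and 7.6% of those called lower. The germline share thus describes the list and is no result of these data. For the 14 higher genes, 12 had a promoter and 7 of these (58.3%) held the letters, as did 3 germline genes that were not called, Sycp1, Tdrd1 and Brdt. The windows below show the letters in capitals for 6 of the 7, so that their surroundings can be compared; a match is a description, not a known site. Sequences and positions are RefSeq's for build GRCm38.p6, on the strand of the gene.
Ddx4 (chr13:112652312-112652361, minus strand): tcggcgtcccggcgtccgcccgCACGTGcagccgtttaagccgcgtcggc
Mael (chr1:166238940-166238989, minus strand): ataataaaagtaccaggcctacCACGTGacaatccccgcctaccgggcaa
Taf7l (chrX:134476512-134476561, minus strand): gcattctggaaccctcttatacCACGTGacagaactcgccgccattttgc
Hormad1 (chr3:95559598-95559647, plus strand): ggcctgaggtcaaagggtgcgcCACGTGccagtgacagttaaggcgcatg
Stk31 (chr6:49395462-49395511, plus strand): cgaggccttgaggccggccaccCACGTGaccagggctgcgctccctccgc
Fkbp6 (chr5:135350118-135350167, minus strand): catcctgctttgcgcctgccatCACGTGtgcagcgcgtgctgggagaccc

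Ddx4, the RNA helicase Vasa of germ cells, was at 35.9, 33.9 and 38 CPM in the iPSC against 2 reads in DOX, a ratio of 569.7 (95% counting interval 165 to 4918). Tex14, of intercellular bridges in the testis, was at 116, 107 and 98.2 against 0.691, 0.421 and 0 CPM (289.6-fold, or 510.1-fold without DOX replicate 1). Tex19.1, which protects germ cells from mobile elements, was at 63.3, 60.6 and 52.1 against 0.691, 0.168 and 0 CPM (205-fold, or 423-fold without DOX replicate 1). Rpl10l, a testis copy of a ribosomal protein gene, was at 14.5, 15.1 and 10.3 CPM with 0 reads in DOX, and its near-identical parent gene makes this uncertain. Mael and Hormad1, shown among the promoters, were at 10.7 and 6.96 CPM in the iPSC with 0 reads in DOX. Fkbp6, Stk31 and Taf7l were at 4.16, 9.45 and 2.33 CPM, with 0 to 2 reads over the DOX group.

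Genes of the 2-cell embryo stood near the limit of detection. All 10 genes found in both tables had 0 reads in DOX, and only 2 reached the minimum level, in the iPSC. With DOX set to 3 reads, a gene at 1 CPM in the iPSC already passes 8-fold. The 2 calls thus followed from the filter. Zscan4d was at 3.78, 3.42 and 0.949 CPM and Zscan4c at 1.91, 1.58 and 0.633 CPM in the iPSC, with 0 reads in DOX, and iPSC replicate 3 was the lowest for both. The Zscan4 genes are near-identical copies, so reads may be split among them. Zscan4c was not called with a floor of 3 reads per library (log2 ratio 2.33).

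Of 28 imprinted genes 7 were higher and none lower, and the median of 0.36 lay near that of all genes. Phlda2, a growth-restraining gene of the placenta, was at 52.2, 51.3 and 45.6 CPM against 1 read in DOX, a ratio of 1453 (95% counting interval 296 to 65219). Peg10, a retrotransposon-derived gene of the placenta, was at 333, 290.3 and 304 against 13.7, 12.3 and 16.2 CPM (22-fold). Dio3, the deiodinase gene of the Dlk1-Dio3 cluster, was at 2.00, 2.35 and 2.12 CPM in the iPSC against 1 read in DOX, a ratio of 74.9 (95% counting interval 12.7 to 2855). Magel2 was at 0.729, 1.24 and 1.40 against 0, 0.0842 and 0.103 CPM. It was not called without iPSC replicate 3, where its mean fell under 1 CPM, or without DOX replicate 2 (log2 ratio 2.996). Dio3 and Magel2 were also not called with a floor of 3 reads per library (2.98 and 2.04). Of 6 trophoblast markers 4 were tested, all of which reached 1 CPM through the iPSC alone, so the filter favoured calls higher. The list summed to 0.505 to 1.38 CPM per DOX library. The 4 tested were higher, among them Tfap2c at 73.8, 72.2 and 79.9 against 0.432, 0 and 0.205 CPM. Hand1 was at 1.96, 1.54 and 1.99 CPM against 2 reads, and the keratin gene Krt7 at 7.74, 9.83 and 16.4 against 0.778, 0.337 and 0.924 CPM. Eomes was the fourth, so the list shares members with the lineage and keratin lists.

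On the fibroblast side, the 12 largest decreases of genes of at least 10 CPM in DOX held few textbook fibroblast genes. Gprin3, a G protein-regulated neurite factor, was at 0.0911, 0.128 and 0.0904 CPM in the iPSC and 160.0, 146 and 173 CPM in DOX (1547-fold). Tmem35a, a chaperone of nicotinic receptors, was at 0.592, 0.769 and 0.588 against 429, 497 and 415 CPM (688-fold), and the aldehyde dehydrogenase gene Aldh3a1 at 1.50, 1.45 and 1.67 against 606, 751 and 670.5 CPM (438-fold). Adh7, an alcohol and retinol dehydrogenase, was at 47.7 ± 3.66 CPM in DOX and 0.210 ± 0.212 CPM in iPSC, and its log2 ratio went from -7.82 to -9.08 without iPSC replicate 1. The acyl-CoA synthetase gene Acsbg1 was at 0.137, 0.214 and 0.542 CPM in the iPSC and 109.7, 125 and 100.4 CPM in DOX, 376-fold apart, or 639-fold without iPSC replicate 3, the highest of its group. The guanine deaminase gene Gda was at 62.4 ± 10.4 CPM in DOX (299-fold). Ehf, an ETS factor of epithelia, was at 31.8 ± 5.51 CPM in DOX and 0.103 ± 0.0505 CPM in iPSC. Ptx3, a secreted pentraxin of innate immunity, differed 211-fold, the relaxin-family receptor gene Rxfp3 215-fold, the phospholipase-like gene Plcl1 190.2-fold and the chloride channel gene Ano1 188-fold.

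Of 31 fibroblast transcription factors tested 16 were lower and 1 higher, with a median of -3.02. Meox2, a homeobox factor of somites and limbs (mm10 chromosome 12, 37108540 to 37179534), was at 0.364, 0.470 and 0.136 CPM in the iPSC and 65.0, 53.8 and 48.2 CPM in DOX (172-fold). Tbx5, of the forelimb and heart, was at 0.228, 0.0427 and 0.0904 against 10.3, 8.25 and 5.54 CPM (66.7-fold, or 121-fold without iPSC replicate 1), and Ebf3 at 0.455, 0.598 and 0.768 against 32.5, 27.4 and 27.7 CPM (48.1-fold). Tcf15, a somite factor also known from epiblast cells, was the 1 higher, at 35.4, 34.5 and 28.3 CPM against 1 read in DOX.

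Hox genes had the lowest median of the lists with at least 5 tested members, -3.50. Of 35 tested, 25 were lower in iPSC (71.4%, against 4.83% of all genes tested) and none was higher. Mean levels ran from 1.04 to 29.2 CPM in DOX and from 0.103 to 3.62 CPM in the iPSC. Of 39 Hox genes in both tables, the 35 tested thus all reached 1 CPM in DOX, so the filter favoured calls lower. By cluster, 10 of 11 tested Hoxa genes were lower, and so were 5 of 9 Hoxb, 6 of 9 Hoxc and 4 of 6 Hoxd genes. Hoxa9 was at 0.410, 0.299 and 0.723 CPM in the iPSC and 20.5, 20.6 and 16.8 CPM in DOX (40.5-fold), and Hoxa10 at 1.32, 1.41 and 0.588 against 35.3, 29.6 and 22.7 CPM (26.4-fold). The anterior genes Hoxa2, at 0.273, 0.214 and 0.0904 against 5.01, 4.38 and 4.82 CPM, and Hoxb4, at 0.182, 0.427 and 0.136 against 6.91, 5.30 and 5.85 CPM, differed 24.6-fold and 24.3-fold, and Hoxb4 37.9-fold without iPSC replicate 2. The 1 tested Hox gene above 0 was Hoxc13, chosen after its value was seen, at 3.62 CPM in the iPSC and 1.68 CPM in DOX, short of the rule.

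**Figure D4:**
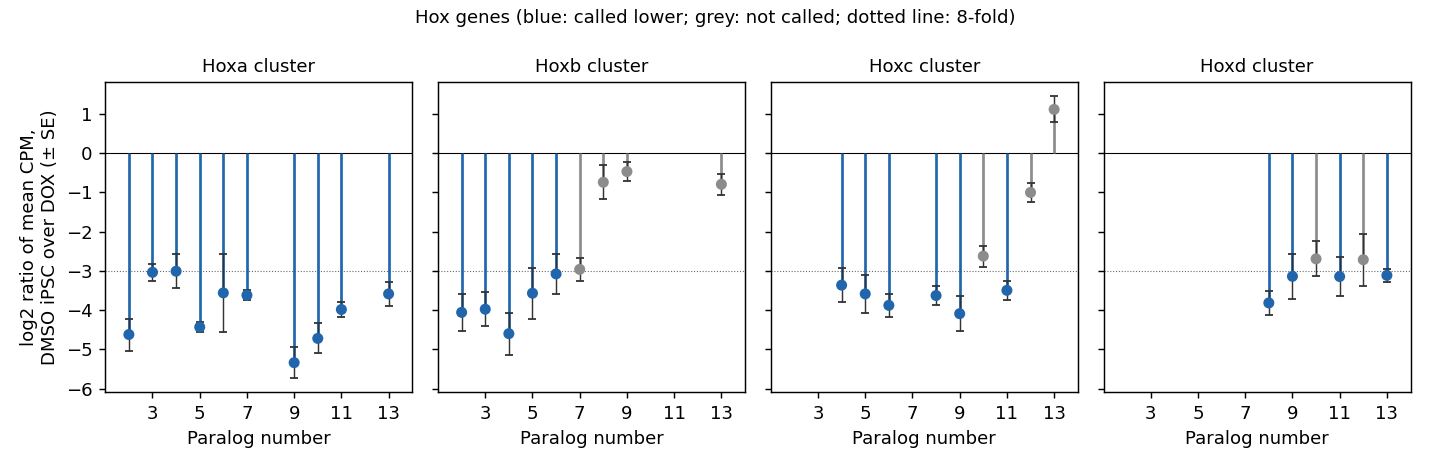
Log2 ratio of mean CPM, DMSO iPSC over DOX, of 34 of the 35 tested Hox genes by cluster (panels) and paralog number (x axis), with bars of 1 standard error from the spread of 3 libraries per group. 1 tested gene that was not called is not drawn. The 10 Hoxa genes drawn were called lower, whereas Hoxb9 lies near 0 and Hoxc13 above it.

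Of 26 surface and mesenchymal genes 13 were lower and none higher (median -3.06). Cd34, of mesenchymal and blood progenitors, was at 4.10, 3.55 and 2.98 CPM in the iPSC and 277, 227 and 197 CPM in DOX (66.0-fold). Cavin3, of caveolae, was at 4.33, 4.49 and 3.39 against 169.6, 173 and 157 CPM (40.9-fold). The receptor kinase gene Axl was at 38.4, 44.6 and 35.0 against 812, 832 and 782 CPM (20.6-fold), and Cd44, the hyaluronan receptor, at 29.2, 35.0 and 27.7 against 530.0, 595 and 594 CPM (18.7-fold).

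Collagen genes did not move as 1 block. Of 22 chains 8 were lower and 1 higher (median -2.32). Col6a3, a chain of the beaded collagen VI (mm10 chromosome 1, 90766860 to 90844001), was at 32.7, 28.3 and 32.7 CPM in the iPSC and 2154, 2073 and 2143 CPM in DOX (68.0-fold), and its partner Col6a1 at 25.3, 31.0 and 30 against 878, 845 and 873 CPM (30.1-fold). The basement membrane chains Col15a1, at 6.92, 8.89 and 7.91 against 282, 276 and 253 CPM, and Col4a6, at 0.410, 0.256 and 0.452 against 9.51, 13.1 and 13.8 CPM, differed 34.2-fold and 32.6-fold. Col1a1, given above, differed 1.91-fold. Col18a1, the 1 higher and named after its value was seen, was at 393 CPM in the iPSC and 26.5 CPM in DOX.

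Of 38 other matrix genes 7 were lower and 1 higher (median -1.31). Fbn2, a microfibril protein of the embryo, was at 4.14, 3.93 and 4.97 against 732, 529 and 551 CPM (139-fold). Fbln5, of elastic fibres, was at 25.4, 28.5 and 19 against 779.9, 655 and 758 CPM (30-fold), and the proteoglycan gene Dcn at 0.546, 0.384 and 0.452 against 15, 18.3 and 10.5 CPM (31.7-fold). Lama5, a laminin chain of epithelial basement membranes on which pluripotent cells grow, was the 1 higher, at 529, 494 and 603 against 23.6, 14.1 and 28.9 CPM (24.4-fold).

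TGF-beta pathway and contractile genes are given beside 12.2% higher and 4.83% lower over all genes tested. Of 18 pathway genes 1 was higher (5.56%) and 1 lower (5.56%), the share lower being near that of all genes. The 1 lower was the type II receptor gene Tgfbr2, at 8.24, 7.18 and 6.96 CPM in the iPSC and 114, 119 and 105 CPM in DOX (15.1-fold). Of 20 contractile genes 2 were lower (10%) and 1 higher (5%), with a median of -1.42. Their share lower was above that of all genes, though on 2 genes. The smooth muscle actins Actg2, at 44.2, 53.8 and 39.8 against 441, 569.5 and 583 CPM, and Acta2, at 283, 311 and 248 against 2455, 2817 and 2732 CPM, were lower, by 11.6-fold and 9.51-fold. Des, the muscle intermediate filament gene, was higher, at 27.3, 30.4 and 36.0 against 5.27, 2.53 and 3.08 CPM (8.61-fold). It was not called with TMM factors (2.96), without iPSC replicate 3 (2.99) or without DOX replicate 2 (2.90).

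Cell cycle genes differed by list, and none of 20 DNA replication and mitosis genes was called (median 0.27). The largest difference there was that of the cyclin gene Ccne2, at 20.7, 20.2 and 16.7 CPM in the iPSC and 67.1, 64.1 and 64.6 CPM in DOX. Of 11 CDK inhibitors and D cyclins 2 were lower. Cdkn2c, an inhibitor of Cdk4 and Cdk6, was at 1.91, 2.18 and 2.67 against 45.9, 40.8 and 40.4 CPM (18.8-fold), and Ccnd2, cyclin D2, at 129, 146 and 84.0 against 1692, 1715 and 1843 CPM (14.6-fold). Cdkn2a, the locus of p16 and p19 that limits reprogramming, was at 17.7, 19.0 and 16.3 against 38.1, 39.8 and 35.0 CPM, 2.13-fold apart.

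All 17 glycolysis genes lay higher in each iPSC library than in each DOX library, and 6 were called higher (median 1.92). The glucose transporter genes Slc2a3, at 2159, 2149 and 2573 against 178, 204 and 157 CPM, and Slc2a1, at 1307, 1313 and 1342 against 104, 114 and 99.1 CPM, differed 12.8-fold and 12.5-fold. Aldoc, an aldolase, was at 83.8, 91.2 and 121 against 2.68, 1.68 and 1.85 CPM (47.7-fold), and Ldhb, a lactate dehydrogenase subunit, at 221, 253 and 380.4 against 19.4, 18.4 and 24.4 CPM (13.7-fold). Gapdh was at 227, 244 and 256 against 24.1, 21.7 and 21.7 CPM (10.8-fold). Gapdh has many pseudogene copies, and so has the cyclophilin gene Ppia, at 187, 235 and 219 against 13.1, 10.9 and 13.6 CPM (17-fold). These 2 were the only ones called of 12 commonly used reference genes (16.7%, median 0.74). Of 80 ribosomal protein genes, a list chosen after values were seen and rich in copies, 14 were higher (17.5%) and none lower (median 0.81). The shares higher of reference and ribosomal protein genes were not far from the 12.2% of all genes tested. How reads of copies were assigned may differ between the tables, and its part in these values was not tested.

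Among 26 growth factor and receptor genes 4 were higher (15.4%) and 4 lower (15.4%), with a median of -0.36. Over all genes tested the shares were 12.2% and 4.83%, so the share higher was near that of all genes. Kit, the stem cell factor receptor, was at 189, 182 and 211 CPM in the iPSC and 0.346, 0.253 and 0.308 CPM in DOX (642-fold), and Igfbp2, which binds insulin-like growth factors, at 932, 966 and 1164 against 7.17, 12.8 and 15.4 CPM (86.6-fold). Fgf10 was at 18.7, 17.6 and 20.7 CPM with 0 reads in DOX (at least 210.2-fold). Met, the receptor of hepatocyte growth factor, went the other way, at 4.55, 4.78 and 8.27 against 398, 409.8 and 377 CPM (67.3-fold).

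Several chemokines of fibroblasts were lower. Of 11 cytokine and chemokine genes tested 4 were lower and 1 higher (median -0.82), and the 4 were chemokines. Cxcl5 was at 0.228, 0.0854 and 0 CPM in the iPSC and 14.7, 15.1 and 16.7 CPM in DOX (148-fold, or 235-fold without iPSC replicate 1), and Ccl2, which attracts monocytes, at 0.865, 1.50 and 0.362 against 44.8, 54.7 and 45.6 CPM (53.3-fold). Ccl7 differed 45.4-fold and Cxcl1 14.3-fold. Interferon-stimulated genes were near the background, with 2 of 16 higher (12.5%) and 1 lower (6.25%). Ifit2 was lower, at 0.820, 0.940 and 1.08 against 15.7, 19.4 and 16 CPM (18-fold), while Oasl2 was at 2.69, 3.80 and 5.60 CPM against 2 reads in DOX. Gbp2 was at 7.83, 9.06 and 31.1 against 1.47, 2.27 and 1.95 CPM, with iPSC replicate 3 far above the others, and without that library its log2 ratio was 2.15 instead of 3.08. It was also not called without DOX replicate 1 (2.92) or with TMM factors (2.93). None of 9 MHC class I genes was called. B2m, the light chain of class I molecules, was closest, at 30.7, 33.1 and 30.8 against 249, 247 and 252 CPM (7.91-fold).

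Markers of other cells that the cultures could hold were low or mixed. None of 5 macrophage markers tested was called, and Cd14 was at 0.319, 0.299 and 0.407 CPM in the iPSC and 2.25, 2.1 and 1.64 CPM in DOX. The erythroid genes Hbb-bs, at 0.0455, 0.470 and 0.362 against 4.49, 6.74 and 5.65 CPM, and Hbb-bt, with 3 reads over the iPSC against 2.33, 2.95 and 1.64 CPM, were lower. Of the 3 endothelial markers tested, Pecam1, which pluripotent cells also carry, was at 116, 123 and 130.5 CPM against 2 reads in DOX, and Tie1 at 1.23, 1.37 and 0.859 CPM with 0 reads in DOX. Tek, the angiopoietin receptor, was lower, at 13.1, 11.3 and 10.3 against 188, 196 and 173 CPM (16.1-fold). Cdh5, a defining endothelial cadherin, was under 1 CPM in both groups. Of 5 neural markers 1 was higher, the RNA-binding protein gene Elavl3 at 41.2, 42.9 and 58.0 against 0.259, 0 and 0.308 CPM (251-fold). Of 3 skeletal muscle markers the troponin genes Tnnt1, at 11, 11.3 and 9.76 against 0.691, 0.842 and 0.205 CPM, and Tnnt3, at 3.19, 2.39 and 2.40 against 0.259, 0 and 0.103 CPM, were higher, and none of 3 keratinocyte markers reached 1 CPM. Among 6 adipocyte, cartilage and bone genes tested, Pparg, at 0.182, 0.384 and 0.0904 against 2.68, 2.02 and 3.39 CPM, and Col2a1, at 11.8, 13.3 and 12.5 against 139, 93.5 and 196 CPM, were lower, and Alpl was higher.

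The comparison was repeated in libraries that it did not use, iPSC with UNC against DOX with UNC, which lie in the same 2 tables. Of 13592 genes tested there, 1540 were higher (11.3%) and 601 lower (4.42%). Of the 1656 genes higher in DMSO iPSC, 1450 (87.6%) were also higher there, and these were 94.2% of the 1540. Of the 657 lower, 545 (83.0%) were also lower, or 90.7% of the 601, and no called gene was separated the opposite way. Nanog had a log2 ratio of 10.03 there and 10.47 here, Cdh1 of 7.15 and 7.06, and Col6a3 of -5.78 and -6.09. Of 120 named genes that were called, 113 were called again. The other 7 were Acta2, Ccnd2, Cxcl1, Des, Gbp2, Krt7 and Oasl2. Over all libraries of the tables, 1625 of the 1656 genes were higher in each of 6 iPSC than in each of 12 reprogramming libraries, 6 of which were also treated with what the labels call C3 (the protocol names ascorbic acid, CHIR99021 and a TGF-beta receptor kinase inhibitor as 3c), and 608 of the 657 were lower. Acta2, Actg2 and Gbp2 were among the exceptions, with overlap between the 6 and the 12 libraries.

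**Figure D5:**
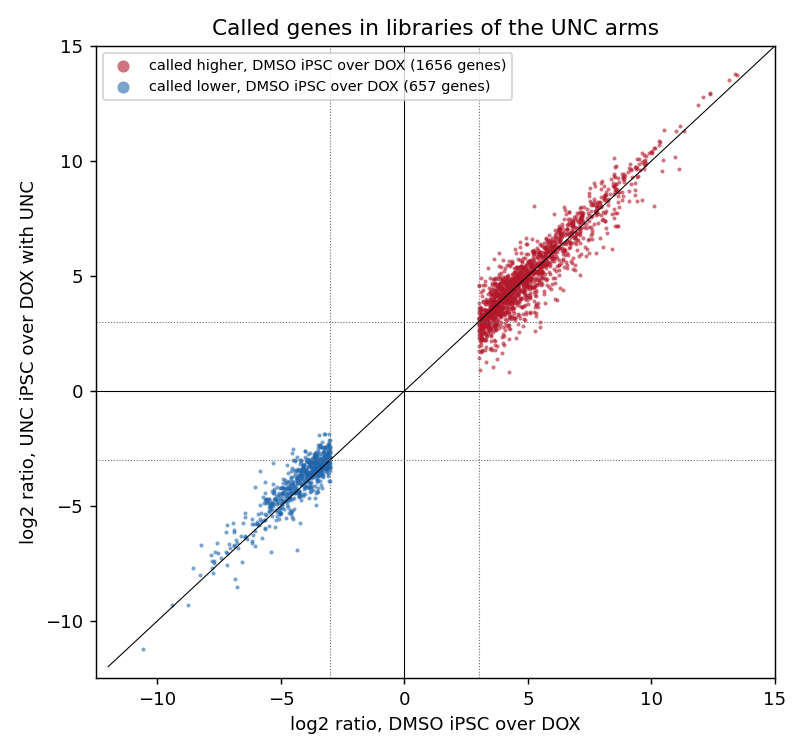
Log2 ratio of mean CPM for the 1656 genes called higher (red) and 657 called lower (blue) in DMSO iPSC against DOX (x axis), and for the same genes in UNC iPSC against DOX with UNC (y axis), with dotted lines at 8-fold. Genes called higher lie between 0.81 and 13.79 on the y axis and genes called lower between -11.24 and -1.86, so each point lies on the side of its call.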

How the data were processed

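RNA sequencing values of 18 mouse libraries were used, and the 10 samples of another assay were not analysed here. The submitters' processing notes name HTSeq 0.5.4p3, TopHat2 2.1.0, DESeq, SAMtools 1.8 and build mm10; strand setting and annotation are not given in the sources used here. Per the labels' protocols, total RNA (RIN above 8) went into stranded, ribosome-depleted libraries. The iPSC table held read counts as deposited. The reprogramming table held signal: the authors had scaled the read counts of each library by a single factor. Division of a column by its smallest nonzero value gave reads back, and 100% of values came out whole within 0.01 read. Left out were 2 of its columns that match no listed sample. Replicate numbers of the iPSC follow the titles, with which the descriptions disagree.

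Of 54071 identifiers in both tables, 38027 matched RefSeq (GRCm38.p6) by symbol and 527 by synonym, and 21266 protein-coding genes were kept after 66 replication histone genes and 19 second identifiers of a symbol were left out. Ratios are of group mean CPM, and standard errors come from the spread of 3 libraries per group; the labels do not say that these were separate cultures, so the spread may be technical. Intervals for 1 to 3 reads cover counting error only. The rule was tested on simulated data. There, changed genes were drawn from those of at least 10 CPM, and all genes shared 1 fixed spread between libraries. Changes of 16-fold were called in 100% of 50 genes each way, 4-fold changes in 0% and unchanged genes in 0% of 11734. As 16-fold and 4-fold lie on either side of the 8-fold limit, these shares were largely set by the simulation's design. Whether these shares hold in the deposited libraries, at all levels and with groups in separate tables, was not tested. Work was done in Python 3.11.15 with pandas 2.3.3, and factors came from edgeR 4.0.16 (TMM) and DESeq2 1.42.0 in R 4.3.3.

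Members and gene lists were chosen with earlier results of these data known. Genes were named by rule: the 12 largest ratios each way among called genes of at least 10 CPM in the higher group, up to 4 called members of each list by size (or the 1 largest where none was called), and 17 genes always named. Other genes named were chosen after their values were seen. Values of 2 genes are not reported here.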

Additional observations from a re-analysis of the deposited data

Results flagged for a closer look

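Values outside the protein-coding comparison differed between the tables. As a mean percentage of reads in genes, the RNase P RNA gene took 0.457% in DOX and 0.000154% in DMSO iPSC, small nuclear RNA genes 0.864% and 0.000848%, and replication histone genes 0.883% and 0.00623%. Pseudogenes took 5.99% in DMSO iPSC and 2.55% in DOX, and transcribed pseudogenes 0.584% and 0.163%. The ranges of the 3 libraries of each group did not overlap for any of these 5 kinds. Xist, which is not protein coding, was at 255 CPM in DOX (224 to 299 over the 3 libraries) and 1.55 CPM in DMSO iPSC (1.04 to 1.84). The same held in the other libraries, with 150.1 to 248 CPM over 9 other reprogramming libraries and 0.969 to 3.70 CPM over 3 UNC iPSC libraries. Table, sex of the cells and cell state cannot be told apart in these values.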

How the results depend on the processing

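The count of genes higher was 1557 to 1668 with other scalings (CPM over all reads, TMM, size factors), with histone genes kept in, and without ribosomal protein or X- and Y-linked genes, the last 2 added after seeing the data; the count lower was 630 to 732. It was 989 higher with a minimum of 5 CPM, and 1296 lower with a 4-fold and 315 lower with a 16-fold threshold. All other alternatives run stayed within 1.5 times, at 1130 to 2336 higher and 472 to 731 lower. Without 1 library the count was 1613 to 1693 higher and 640 to 675 lower. Of 2652 values of 133 named genes under alternatives, 0 reversed and 237 moved by more than the spread (1 SD). Of 120 called named genes 4 lost the call without 1 library, among them Des, Magel2 and Gbp2, and 3 under another scaling, among them Des and Gbp2. For 35 named genes with 3 or fewer reads in DOX, leaving out 1 library moved the log2 ratio used for calls by 0.585 to 0.84. That ratio includes the floor of 3 reads, unlike the ratios printed with counting intervals. Afp, Hbb-bt, Pparg and Tfap2c moved to -5.27, -5.08, -4.31 and 9.08 on the log2 scale, without iPSC replicate 2 for the first 3 and DOX replicate 1 for Tfap2c. Leaving out mitochondrially encoded genes was not run, since none was among the genes kept. No paired analysis was possible because the result comes from no test. At 3 reads over a group, levels under 0.0904 CPM in DOX and 0.0444 CPM in iPSC were not measurable.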

Other observations

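Some called genes lay side by side. Gdf3, Dppa3, Nanog and Slc2a3 follow one another among tested genes on chromosome 6 (122605403 to 122802363), and all 4 were higher in iPSC. Gdf3, a TGF-beta family ligand, was at 102 against 0.273 CPM in DOX, and Dppa3, a maternal factor that protects DNA methylation, at 13.2 CPM with 0 reads in DOX. Their tested neighbours Apobec1 (log2 ratio -0.23) and Foxj2 (-0.46) were not called. Slc22a18 and Phlda2, imprinted neighbours on chromosome 7, were also both higher, at 6.26 against 0.534 CPM for the first and 49.7 CPM against 1 read over the DOX group for Phlda2, while Cdkn1c beside them was at 8.87 against 4.93 CPM. These loci were chosen after their values were seen. Among 13577 pairs of adjacent tested genes, both were higher in 373, both were lower in 88, and 83 held 1 of each. Whether these counts exceed those from shares of 12.2% higher and 4.83% lower over all genes was not tested.

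Calls differed with the span of the gene on the chromosome. With tested genes split into 4 equal classes by span, 14.9% of the shortest class were higher and 4.35% lower, and of the longest class 9.76% were higher and 8.59% lower. The list of contractile genes also takes in targets of SRF, the factor that binds the CArG box. Of its 16 genes with a promoter at hand, 4 (25.0%) held that box, on either strand, against 1.57% of all promoters of that length. As SRF targets were listed as such, this share describes the list and is no result of these data. The box was in 1.38% of promoters of genes called higher, 1.4% of those called lower and 1.32% of all genes tested.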
